A study of Mus musculus with 47 samples.

Results

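Dox treatment of differentiating C2C12 iMyoD1 cultures for 48 h was examined by comparing 3 libraries labelled plus dox with 3 labelled no dox, 6 of the 47 libraries of the series. C2C12 is an immortalized mouse myoblast line that fuses into myotubes when serum is withdrawn, and C2C12 iMyoD1 is a polyclonal pool that carries, beside its endogenous gene, a doxycycline (dox)-inducible Halo-tagged copy of the myogenic transcription factor MyoD1. Both groups had the same line and the same 48 h in differentiation medium, and differed in dox or vehicle, given from the medium switch on. Dox libraries held 20522001 to 50950674 counts and no-dox libraries 18598297 to 24097187. Levels are given as CPM, counts scaled to library size, with factors from TMM, a normalization that assumes most genes do not change. A gene was called when its adjusted p (edgeR quasi-likelihood test, Benjamini-Hochberg) was below 0.05 and it differed by more than 2-fold. In whole-culture RNA, fewer cells of a type and less RNA per cell cannot be told apart.

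MyoD1 binds E-boxes, DNA elements of the form CANNTG, together with E-proteins, and in muscle cells it activates *Myog*, the transcription factor of terminal differentiation, followed by the fusogens and the genes of the contractile apparatus. Myoblasts leave the cell cycle as this program begins, and Notch signalling and Id proteins hold them back from it. Cadherins, integrins and immunoglobulin-family proteins join the cells to each other and to the matrix.

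*Myod1* itself was lower, not higher, in the libraries labelled dox. Its level was 287, 310 and 283 CPM with dox and 365, 366 and 362 CPM without, and the groups did not overlap. The log2 fold change was -0.36 (standard error 0.0595, adjusted p = 0.000446). *Myod1* is at chr7:46376474-46379099 on the plus strand (GRCm38). Reads of the inducible copy and of the endogenous gene were not separated in the gene counts, and the part of each in this value was not tested. Dox and no dox below mean what the libraries are labelled. Of the genes called higher here, 52.8% were also called higher with dox in the separate 24 h libraries of the same line. A further 1.76% were called lower there. Of those called lower here, 14.3% were called lower at 24 h and 7.8% higher. Among all genes tested at both times, 7.35% were called higher at 24 h and 4.6% lower.

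The 4 promoters that follow are shown for *Myog* and *Chrng*, a regulator and an acetylcholine receptor subunit that were lower with dox, for *Id2*, an inhibitor of E-proteins that was also lower, and for *Cadm4*, an adhesion molecule that was higher. Each is the 250 bases before a RefSeq start (GRCm38.p6), read 5′ to 3′ on the gene's strand, and capitals mark every CANNTG. *Myog* lies at chr1:134289754-134290003 (plus), *Chrng* at chr1:87205561-87205810 (plus), *Id2* at chr12:25096093-25096342 (minus) and *Cadm4* at chr7:24481773-24482022 (plus).
Myog: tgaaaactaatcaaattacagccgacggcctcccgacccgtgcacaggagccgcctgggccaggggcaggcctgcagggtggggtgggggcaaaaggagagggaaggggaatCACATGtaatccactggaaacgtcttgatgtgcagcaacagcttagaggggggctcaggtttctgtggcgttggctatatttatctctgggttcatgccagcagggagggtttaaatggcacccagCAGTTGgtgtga
Chrng: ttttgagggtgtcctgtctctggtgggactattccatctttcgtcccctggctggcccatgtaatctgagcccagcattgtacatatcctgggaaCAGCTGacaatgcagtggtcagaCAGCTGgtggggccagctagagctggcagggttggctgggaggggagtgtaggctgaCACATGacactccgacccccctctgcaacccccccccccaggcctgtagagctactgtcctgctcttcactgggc
Id2: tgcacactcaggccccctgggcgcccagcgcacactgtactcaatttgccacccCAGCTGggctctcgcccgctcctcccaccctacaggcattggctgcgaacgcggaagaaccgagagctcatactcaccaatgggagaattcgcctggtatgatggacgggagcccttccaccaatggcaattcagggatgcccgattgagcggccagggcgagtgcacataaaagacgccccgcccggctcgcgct
Cadm4: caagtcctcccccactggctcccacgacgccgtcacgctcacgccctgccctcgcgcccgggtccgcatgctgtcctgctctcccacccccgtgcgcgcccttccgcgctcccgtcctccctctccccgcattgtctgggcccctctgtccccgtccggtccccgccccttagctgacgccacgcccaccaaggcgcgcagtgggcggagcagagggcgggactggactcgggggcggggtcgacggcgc
*Chrng* held 3 matches, of which 2 were the letters CAGCTG. *Myog* held 2 matches and no CAGCTG, *Id2* held 1, a CAGCTG, and *Cadm4* held none. Both motifs read the same on either strand, and every CAGCTG is also a CANNTG. Of the 13871 genes tested, 10070 matched a promoter by symbol. CAGCTG was found in 15.5% of 579 genes called higher, 21.2% of 812 called lower and 14.6% of all tested. For CANNTG the shares were 67.0%, 67.7% and 61.4%. These are shares of genes, in which 1 matching promoter is enough for a gene with several. Counted by promoter in the same order, CAGCTG stood in 13.3%, 18.3% and 12.4%, and CANNTG in 62.4%, 65.4% and 57.5%. Over all 32851 promoters of the table, also counted by promoter, 13.0% held CAGCTG and 66.2% held CANNTG. Within the last 100 bases before the start, CAGCTG stood in 9.33% of genes called higher, 9.85% of those called lower and 6.43% of all tested, so the gap between the lower and the higher genes seen over 250 bases was nearly absent there.

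Across all genes, 823 of 13871 were called higher with dox (5.93%) and 1174 lower (8.46%). The balance of the directions depended on the scaling, since by library totals alone the median log2 fold change of all genes moved up by 0.14 and 1092 genes were higher and 970 lower. Genes called in either direction lay below the typical level, with a median without dox of 14.2 CPM for those called lower and 1.69 CPM for those called higher, against 25.2 CPM for all tested. Genes called lower supplied 10.5% to 10.7% of all counts in the no-dox libraries and 4.45% to 4.68% in the dox libraries. These shares describe genes chosen by the same contrast. The groups did not overlap for 63.5% of all genes tested, so a lack of overlap alone marks little here.

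**Figure D1:**
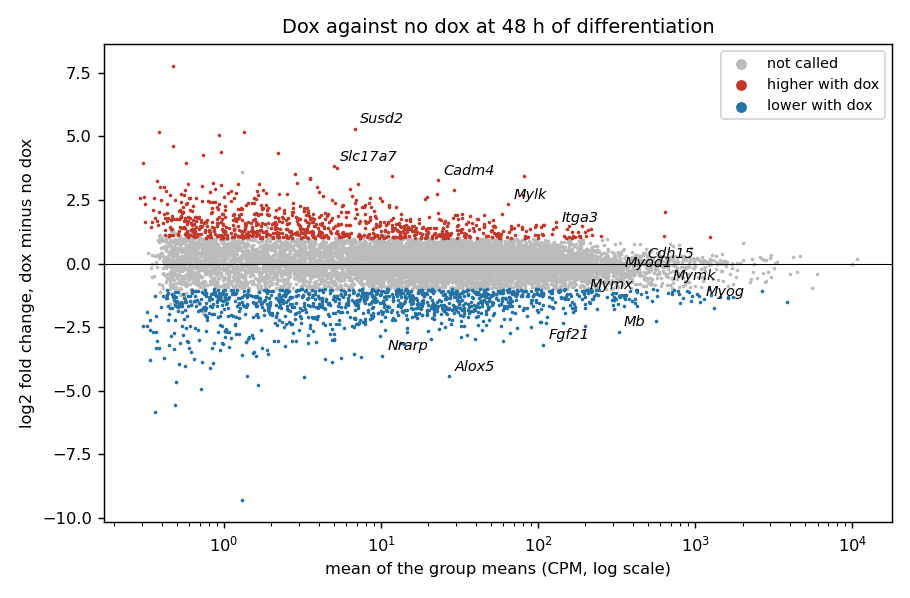
Log2 fold change (dox minus no dox) of each of the 13871 genes tested at 48 h against the mean of the group means in CPM on a log scale, with genes called higher in red and lower in blue. *Susd2* and *Cadm4* lie above, *Alox5*, *Fgf21* and *Mb* below, and *Cdh15* lies at 0.

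*Myog* and the fusogen gene *Mymx* were lower with dox. *Myog* was at 541, 546 and 643 CPM with dox and at 1580, 1570 and 1590 CPM without, a difference of -1.50 on the log2 scale (standard error 0.0922, adjusted p = 3.46e-07). *Mymx*, the small membrane protein that completes fusion, was at 108, 132 and 122 CPM with dox and at 274, 275 and 262 CPM without. In both genes every dox library lay well under every no-dox library. *Mymk*, the fusogen that acts with *Mymx*, was at 471, 514 and 451 CPM with dox and 902, 845 and 776 CPM without. Its log2 fold change of -0.86 (adjusted p = 5.11e-06) did not pass the 2-fold limit. Of 11 tested myogenic regulators 2 were called lower, *Myog* and *Mef2c*, and none was called higher. The E-protein genes *Tcf3* and *Tcf4* were at 0.26 and 0.51 (adjusted p = 0.00694 and 6.92e-05, edgeR), short of 2-fold, and a further one, *Tcf12*, at -0.17 (adjusted p = 0.147). Of 25 tested fusion genes 4 were called lower and none higher, and the list median was -0.26 beside 0.01 for all genes.

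**Figure D2:**
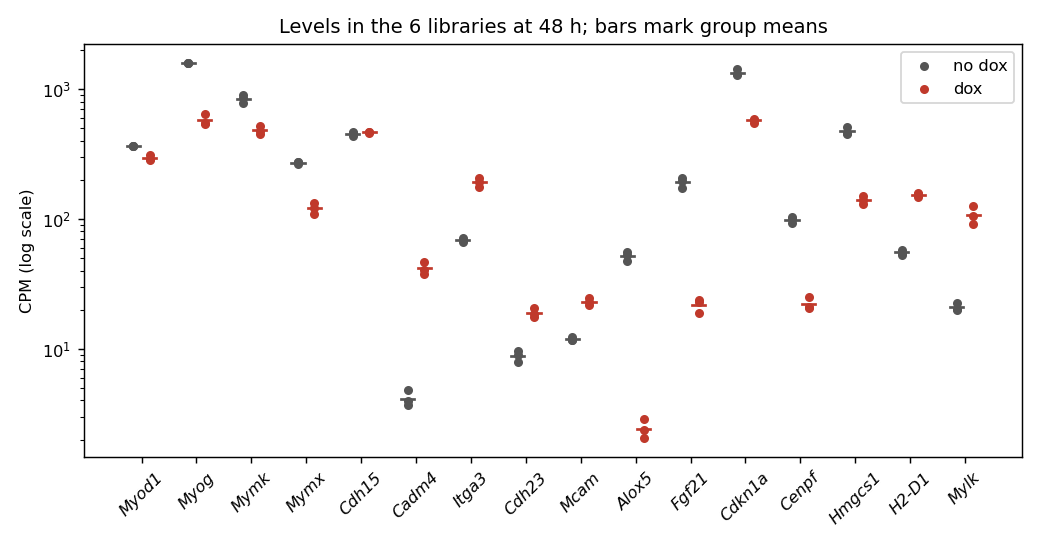
Level in CPM on a log scale of 16 genes in each of the 6 libraries, no dox in grey and dox in red, with short bars at the group means. The dots of the groups are apart for each gene shown but *Cdh15*.

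Most thick- and thin-filament genes were lower. Of 23 tested thick-filament genes 20 were called lower, with a median log2 fold change of -1.26, and of 19 thin-filament genes 13 were called lower, with a median of -1.23. None of either list was called higher. *Ttn*, the giant spring protein of the sarcomere, was at 269, 178 and 183 CPM with dox and at 649, 704 and 587 CPM without. *Lmod3* and *Lmod2*, which nucleate thin filaments, fell by 1.84 and 1.74 on the log2 scale. Of 21 Z-disc genes 10 were called lower, led by *Pdlim3* at -2.52 and by *Csrp3* at -2.47. *Csrp3*, a LIM protein of the Z-disc, was at 17.2, 19.8 and 17.3 CPM with dox and at 92.8, 99.3 and 99.1 CPM without. Near-identical myosin heavy chain genes can share reads, so their single values are uncertain.

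Calcium handling genes were called in 1 direction, and those of the synapse and of muscle metabolism in both. Of 24 excitation-contraction genes 12 were called lower and none higher, among them *Casq1* at -1.87 and *Casq2* at -1.39, the calcium-binding proteins of the sarcoplasmic reticulum. Of 11 neuromuscular junction genes 4 were called lower and 2 higher. *Chrng* was at 192, 206 and 192 CPM with dox and at 485, 454 and 444 CPM without. *Agrn*, the matrix protein that clusters acetylcholine receptors, went the other way, from 76.8, 84.4 and 81.6 CPM without dox to 264, 222 and 209 CPM with it (log2 fold change 1.47, adjusted p = 2.11e-07). *Mb*, the oxygen-binding protein myoglobin, was at 78.6, 90.5 and 101 CPM with dox and at 517, 579 and 581 CPM without. Among 20 muscle metabolism genes 7 were called lower and 1 higher. Of 16 muscle proteostasis genes 9 were called lower, with *Hspb7* at -2.22 and *Klhl41* at -1.61, both chaperone-type factors of muscle. Of 14 dystrophin complex genes 3 were called lower (21.4%) and 1 higher (7.14%), with *Dtnb*, a dystrobrevin, at 1.49 on the log2 scale. Over all genes 8.46% were called lower and 5.93% higher. The share called higher in this list was thus near that of all genes. None of 71 nuclear oxidative phosphorylation genes and none of 13 mitochondrially encoded genes was called by edgeR. At an adjusted p below 0.05 and smaller folds, 5 of the nuclear genes were higher and 25 lower, and 5 of the mitochondrially encoded genes were higher and 1 lower. Mitochondrially encoded transcripts made up 3.70% to 4.12% of counts with dox and 3.30% to 3.47% without.

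Mitosis and DNA replication genes were lower. All 26 tested mitosis genes were called lower, between -2.19 and -1.26, with a median of -1.80. *Cenpf*, a kinetochore protein, was at 24.9, 21.1 and 20.7 CPM with dox and at 92.8, 103 and 99.3 CPM without. *Ccnb2*, a mitotic cyclin, fell by 2.07 and *Ttk*, a spindle checkpoint kinase, by 2.03 on the log2 scale. Of 29 DNA replication genes 12 were called lower, and all 29 were lower at an adjusted p below 0.05. *Rrm2*, a subunit of ribonucleotide reductase, fell by 1.76. The inhibitor of the cell cycle *Cdkn1a* was lower as well, at 549, 590 and 577 CPM with dox and at 1420, 1310 and 1270 CPM without. *Cdkn2c*, another such inhibitor, also fell, by 1.26.

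Some inhibitors of myogenesis were lower with dox. *Id2* was at 9.23, 8.70 and 10.2 CPM with dox and at 69.0, 70.5 and 69.7 CPM without, and *Bhlhe40*, a transcriptional repressor, fell by 2.32 on the log2 scale. Of 16 tested members of that list 5 were called lower and none higher. At folds under 2 the list went both ways, and *Id3*, a relative of *Id2*, was at 0.58 (adjusted p = 0.000955, edgeR), *Twist2* at 0.53 and *Snai2* at 0.37, while *Id1* was at -0.15 (adjusted p = 0.186). These members, and the E-protein genes above, were named after their values were seen. In the Notch list 5 of 19 were called lower and 1 higher. *Nrarp*, a feedback inhibitor induced by Notch, was at 1.83, 1.55 and 1.30 CPM with dox and at 16.9, 18.7 and 20.7 CPM without. The Notch effectors *Hey1* and *Heyl* fell by 2.95 and 2.73 on the log2 scale. The 1 Notch gene called higher was *Mfng*, a glycosyltransferase of Notch receptors, at 1.59, 2.23 and 1.67 CPM with dox and at 0.166, 0 and 0.0847 CPM without, which was named after its value was seen. With so few counts without dox, its fitted fold depends on the prior count and is not given. Of 19 immediate early genes 7, and of 19 genes of ERK feedback 7, were called lower, with none higher in either list, *Dusp4* and *Dusp6* among them at -1.59 and -1.43.

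Among the 5 adhesion genes that the study took up as candidates, 3 were called higher. The study chose them for rising with dox in this line and for being more bound by MyoD1. The list is therefore not independent evidence of its direction. *Cadm4* was at 40.3, 37.9 and 46.5 CPM with dox and at 3.66, 4.79 and 3.94 CPM without (log2 fold change 3.28, standard error 0.133, adjusted p = 3.52e-08). *Itga3*, a laminin-binding integrin chain, was at 206, 193 and 176 CPM with dox and at 68.6, 71.6 and 66.2 CPM without. *Cdh23*, an atypical cadherin, was at 20.5, 18.4 and 17.7 CPM with dox and at 7.92, 9.57 and 8.93 CPM without, a log2 fold change of 1.05 that was 0.98 without no-dox replicate 1. *Mcam*, an immunoglobulin-family adhesion molecule, rose by 0.91, short of 2-fold (adjusted p = 8.42e-06), and is overlapped by a gene on the other strand. By library totals it rose by 1.05 and was called. *Cdh15*, the cadherin of myoblasts, was at 466, 467 and 460 CPM with dox and at 466, 436 and 457 CPM without, so the groups overlapped (adjusted p = 0.911). On a length-scaled level (TPM), *Cdh15* stood at 255 with dox, above *Itga3* at 71.8, *Cadm4* at 34.4, *Mcam* at 14.5 and *Cdh23* at 6.24.

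Integrins and cadherins were called in both directions. The counts of this paragraph stand beside 5.93% of all genes called higher and 8.46% called lower. Of 18 integrins 4 were called higher and 6 lower, and the lower ones included *Itgb6* at -1.66, *Itga6* at -1.59 and *Itga7*, the integrin chain of muscle, at -1.18. Of 8 cadherins 2 were higher and 2 lower, with *Cdh24* at 1.23 and *Cdh18* at -1.86, of 17 immunoglobulin-family genes 3 were higher and none lower, and of 28 protocadherins 3 were higher and 1 lower. Clustered protocadherins share exons, and their single values are uncertain. Guidance genes had 8 higher and 2 lower of 45, with *Efna4* at 1.60 and *Sema3f* at 1.42 above and *Sema3g* at -2.70 below. Synaptic genes had 5 higher and 2 lower of 20. *Slc17a7*, a vesicular glutamate transporter, was at 9.61, 9.71 and 8.86 CPM with dox and at 0.775, 0.655 and 0.508 CPM without, and *Sv2a*, a synaptic vesicle protein, rose by 2.30.

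Of 9 claudin and tight junction genes 3 were called higher and none lower, where 5.93% of all genes were called higher. A further 22 of the list were not tested. Of the genes tested 1 had 3 counts or fewer in every library of a group, so its fitted fold is uncertain. *F11r*, a junctional adhesion molecule, was at 30.1, 32.7 and 34.7 CPM with dox and at 12, 13.6 and 10.6 CPM without. Of 14 adhesion G protein-coupled receptors 1 was higher and 2 lower, all under the 5 CPM needed to be named by rule.

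In each extracellular matrix list more genes were called lower than higher, as over all genes (8.46% lower and 5.93% higher). Of 28 collagens 12 were called lower and 3 higher, and of 30 matricellular genes 13 were lower and 1 higher. *Col1a1*, a chain of type I collagen, was at 219, 204 and 183 CPM with dox and at 873, 980 and 933 CPM without. *Aspn* and *Fmod*, small leucine-rich proteoglycans, fell by 2.88 and 2.81 on the log2 scale. *Col11a2* rose by 1.79. Of 17 basement membrane genes 6 were lower and 2 higher, with the laminin chain *Lamb3* at -2.15, and of 26 proteases and inhibitors 6 were lower and 1 higher, *Mmp19* at 1.14.

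Genes of secreted signals and their pathways were called in both directions, some lists at shares near those of all genes (5.93% higher and 8.46% lower). Of 27 TGF-beta and BMP genes 7 were called lower and 2 higher. *Gdf11*, a ligand of this family, was at 67.9, 61.0 and 62.7 CPM with dox and at 16.9, 18.2 and 19.1 CPM without, while *Ltbp2*, a latent TGF-beta binding protein, was at 65.7, 57.1 and 52.0 CPM with dox and at 178, 202 and 178 CPM without. Both genes had groups well apart, in opposite directions. Of 31 Wnt genes 5 were lower and 3 higher, and the ligand *Wnt9a* was at 38.4, 38.5 and 34.0 CPM with dox and at 94.2, 98.5 and 92.1 CPM without. Of 20 chemokine and cytokine genes 6 were lower and 3 higher, with *Lif*, a cytokine of the interleukin-6 family, at -2.38, the neurotrophin *Bdnf* at -1.62 and the chemokine *Cxcl5* at 1.61. Of 15 IGF genes 1 was higher and 1 lower (6.67% each), near the shares of all genes. The latter was *H19*, an imprinted non-coding RNA, at 1680, 1590 and 1900 CPM with dox and 3370, 3630 and 3720 CPM without. Of 14 eicosanoid genes 2 were lower, *Alox5* and the prostaglandin synthase *Ptgs2* at -1.40, and 1 was higher. Of 22 smooth muscle contractile genes 2 were higher and 1 lower. *Mylk*, the myosin light chain kinase of smooth muscle and non-muscle cells, was at 126, 106 and 91.7 CPM with dox and at 20.3, 22.3 and 19.9 CPM without. Of 13 satellite cell genes 2 were lower, *Spry1*, an inhibitor of receptor tyrosine kinase signalling, at -1.99 and *Itga7*.

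Most genes of cholesterol synthesis and most ATF4 targets were lower, and most interferon-responsive genes higher. Of 21 cholesterol synthesis genes 13 were called lower and none higher, with a median of -1.28. *Hmgcs1*, the enzyme that makes HMG-CoA, was at 149, 140 and 130 CPM with dox and at 454, 453 and 508 CPM without. Of 24 ATF4 target genes 18 were lower and none higher. *Fgf21*, a secreted hormone of this list, was at 18.9, 23.9 and 22.8 CPM with dox and at 195, 207 and 173 CPM without, and *Trib3*, a pseudokinase, was at 6.84, 8.82 and 8.40 CPM against 40.8, 51.2 and 37.2 CPM. Of 25 interferon-responsive genes 14 were called higher and 1 lower, with a median of 1.05. The class I antigen *H2-D1* was at 146, 159 and 156 CPM with dox and at 54.6, 58.0 and 52.6 CPM without, and *Tap1*, the peptide transporter, rose by 1.29. *Ifit2* was the member called lower, at -1.08. Class I genes are alike in sequence and can share reads.

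**Figure D3:**
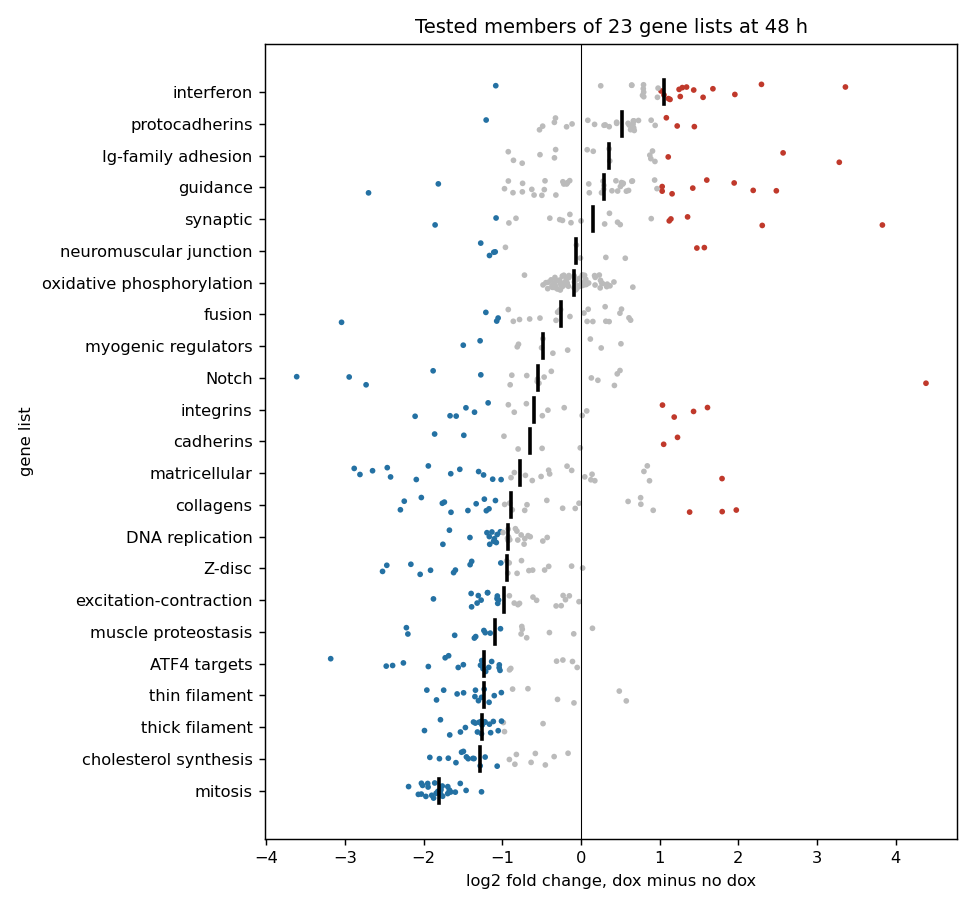
Log2 fold change (dox minus no dox) of every tested member of 23 gene lists, ordered by median, with genes called higher in red, lower in blue and the others in grey, and black bars at the medians. The mitosis list lies wholly below 0 with a median of -1.80, and the interferon list has a median of 1.05.

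Called genes whose libraries did not overlap and averaged 5 CPM or more were ranked by fold change, and the 10 largest rises and 10 largest falls were in genes of varied function. Larger fitted changes of genes under 5 CPM are left out of this ranking. *Susd2*, a membrane protein with a sushi domain, was at 12.9, 14.0 and 13.2 CPM with dox and at 0.443, 0.151 and 0.381 CPM without. *Sytl1*, a synaptotagmin-like protein, was at 20.9, 20.9 and 22.8 CPM with dox and at 1.99, 1.56 and 2.12 CPM without. The groups of both genes were far apart. *Sdsl*, *Atp1b2*, *Sned1* and *Fam43a* were also among the 10 largest rises, with log2 fold changes between 2.74 and 3.11. *Gm37376*, which a gene on the other strand overlaps, and ENSMUSG00000106857 were among them too, but their dox libraries ranged from 67.9 to 217 CPM and from 6.65 to 14.6 CPM. *Alox5*, the enzyme that starts leukotriene synthesis, was at 2.37, 2.87 and 2.04 CPM with dox and at 52.9, 55.9 and 47.1 CPM without. *Fut1*, *Padi3*, *Depp1*, *Map3k7cl*, *Anxa8* and *Atg9b* were also among the 10 largest falls, with log2 fold changes from -3.71 to -3.00.

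The labelled cell type was checked with marker lists. All 8 myoblast and all 8 myotube markers were tested. The summed level of the myotube markers was 4770 to 5080 CPM with dox and 12000 to 13000 CPM without, with 6 of 8 called lower, and that of the myoblast markers 3210 to 3250 CPM against 4770 to 4980 CPM, with 1 called lower. Fibroblast markers, which include *Col1a1*, summed to 280 to 313 CPM with dox and 1010 to 1130 CPM without. Smooth muscle and pericyte markers, which include the myoblast marker *Des*, summed to 3220 to 3420 CPM and 5100 to 5590 CPM, with 1 called higher and 1 lower. Osteoblast and chondrocyte markers summed to 74.9 to 80.5 CPM and 108 to 113 CPM, and adipocyte markers to 44.7 to 46.4 CPM and 35.6 to 39.3 CPM. Endothelial markers summed to 1.03 to 1.5 CPM with dox and 2.77 to 5.09 CPM without, macrophage markers to 7.76 to 11 CPM and 6.31 to 7.79 CPM, and neuronal or glial markers to 5.81 to 6.96 CPM with dox and at least 13.5 CPM without. *Tcf21*, *Plin1*, *Acan*, *Emcn*, *Erg*, *Tie1*, *Adgre1*, *Tyrobp*, *Nefl*, *Rbfox3*, *Snap25* and *Sox10* had no counts in any of the 6 libraries. The part of these differences in the results was not tested.

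The dox effect at 48 h differed from that at 24 h in the same line, which has its own control libraries. The 24 h libraries came from another deposited table, so time and table cannot be told apart. With the same limits on adjusted p and fold, the 48 h effect was called above the 24 h effect for 640 of 15080 genes (4.24%) and below it for 1351 (8.96%). All 26 mitosis genes were among the latter, with a median dox effect of -0.01 at 24 h. So were 14 thick-filament and 13 thin-filament genes. At 24 h on its own 10 thick-filament and 17 thin-filament genes passed the count filter, against 23 and 19 at 48 h. Some of the 14 therefore entered the test through their 48 h counts, with few counts at 24 h. *Nrarp* rose with dox at 24 h, by 1.51, and the difference was -5.12 (standard error 0.246, adjusted p = 4.54e-10). The dox effect on *Cdh15* was 1.25 at 24 h and on *Cdh23* 3.64, both past the 48 h values by the test of the difference (-1.26, adjusted p = 4.72e-09, and -2.58, adjusted p = 1.75e-06). For *Cadm4* the effect was 2.97 at 24 h and no difference passed the test (0.31, adjusted p = 0.174). At 24 h on its own, 8.02% of the genes tested were higher with dox and 5.13% lower. Of the genes called higher at 48 h and tested at both times, 52.8% were also called higher at 24 h (40.4% of the 24 h list). Of those called lower, 14.3% were lower at 24 h (20.4% of the 24 h list) and 7.80% were higher.

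The whole cultures at 120 h gave another order. The 48 h effect was called above the 120 h effect for 867 of 14734 genes (5.88%) and below it for 1058 (7.18%). All 26 mitosis genes were below, since at 120 h their median dox effect was 0.67, and 13 of the cholesterol synthesis genes were below as well. In contrast, 17 of 24 ATF4 targets were above, their median dox effect being -2.68 at 120 h. *Myog* fell further at 120 h, by 2.58, and the difference was 1.09 (adjusted p = 0.000269). *Mcam* rose by 4.14 at 120 h, and the difference was -3.23 (adjusted p = 4.71e-07). At 120 h on its own, 7.32% of the genes tested were higher and 8.80% lower. Of the genes called higher at 48 h 47.6% were called higher at 120 h (35.5% of the 120 h list, background 6.86%), and of those called lower 39.5% were lower (39.7% of the 120 h list, background 8.41%).

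**Figure D4:**
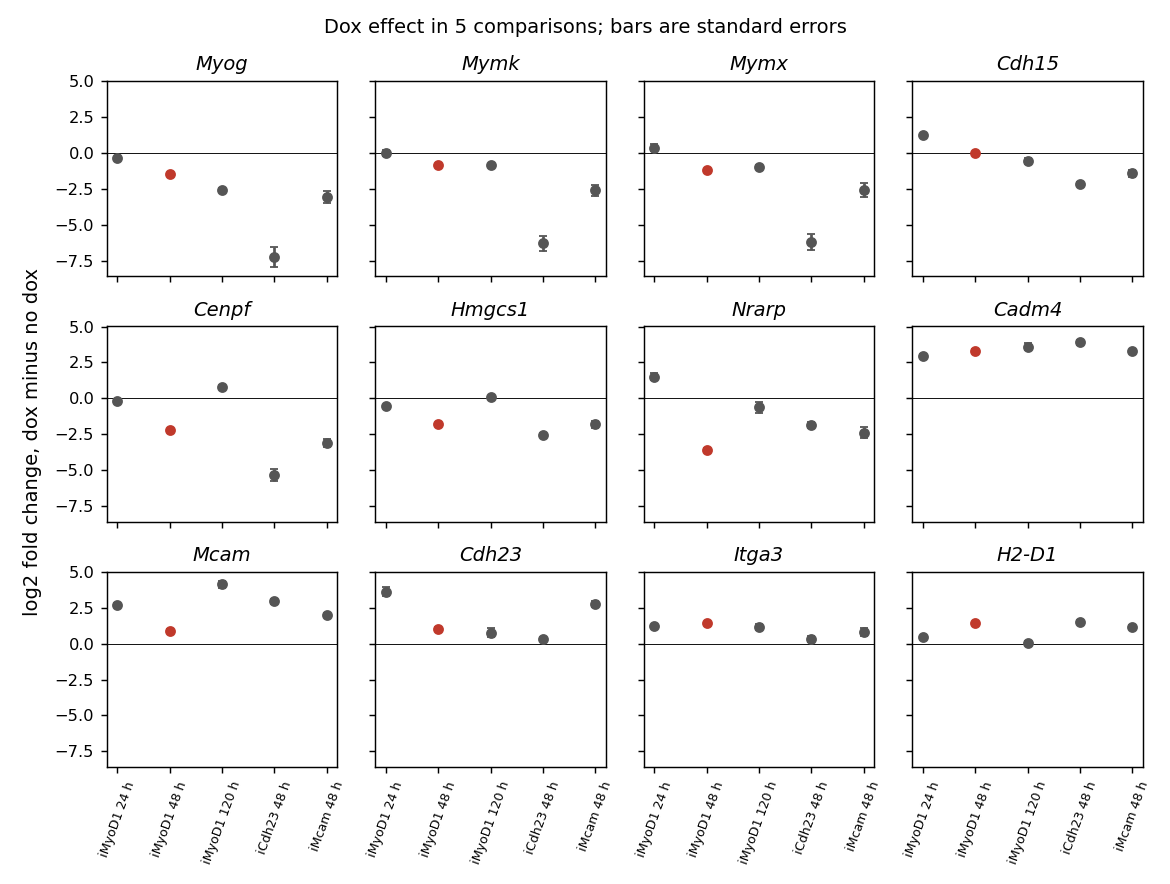
Log2 fold change (dox minus no dox) with its standard error for 12 genes in 5 dox comparisons, the 48 h iMyoD1 value in red. *Cadm4* lies between 2.97 and 3.90 in each, while *Nrarp* is above 0 only at 24 h and *Cenpf* only at 120 h.

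Further dox-inducible lines, iCdh23 and iMcam, which carry inducible adhesion genes in place of the MyoD1 copy, were treated for the same 48 h and share no library with the iMyoD1 cultures. *Mcam* rose by 2.02 in iMcam. *Cdh23* was at 387 CPM in iCdh23 even without dox and at 485 CPM with it, a change of 0.32 that did not pass the test (adjusted p = 0.102). In iCdh23 13.0% of the genes tested were higher with dox and 17.0% lower, and in iMcam 6.99% and 9.85%. Of the iMyoD1 genes called higher, 59.7% were called higher in both lines (61.4% of the genes higher in both), where 5.59% of all genes were. Of those called lower 76.5% were lower in both (62.8% of the genes lower in both), where 9.40% of all were. *Alox5* fell by 4.33 in iCdh23 and by 4.19 in iMcam, against 4.43 in iMyoD1, and *Cadm4* rose by 3.90 and 3.27. All 26 mitosis genes were called lower in each line. Across genes the dox effects had a Spearman correlation of 0.708 with iCdh23 (13427 genes) and 0.790 with iMcam (13273 genes), a description over genes that are not independent. Dox, differentiation medium and culture time were common to the 3 lines, and their parts were not tested.

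The size of the effect was compared with that in the iCdh23 and iMcam libraries. These came from another deposited table than the iMyoD1 libraries, so line and table cannot be told apart. The iMyoD1 effect was called above the mean effect of the other lines for 1191 of 14955 genes (7.96%) and below it for 365 (2.44%). Of the muscle lists, 17 thick-filament, 16 thin-filament and 14 Z-disc genes and all 26 mitosis genes were above, their falls being smaller in iMyoD1. The other lines were not alike in this. In iMyoD1, iCdh23 and iMcam the thick-filament median was -1.26, -5.79 and -2.14, and the thin-filament median -1.23, -6.11 and -2.63. The Z-disc median was -0.94, -4.4 and -1.98, and the mitosis median -1.80, -4.76 and -2.92. *Myog* fell by 7.26 in iCdh23 and 3.06 in iMcam, and the difference was 3.67 (adjusted p = 0.000153). *Cdh15* fell in both lines, by 2.16 and 1.41, and the difference was 1.78 (adjusted p = 3.14e-05). *Cilp*, a matrix protein, was at 181, 163 and 143 CPM with dox and 417, 448 and 415 CPM without in iMyoD1, and fell by 7.79 and 3.15 in the other lines. On the other side, *Atp1b2*, a sodium pump subunit, rose by 2.92 in iMyoD1 and by 5.73 and 5.18 in the other lines. None of the 21 cholesterol synthesis genes differed by more than 2-fold in this test.

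**Figure D5:**
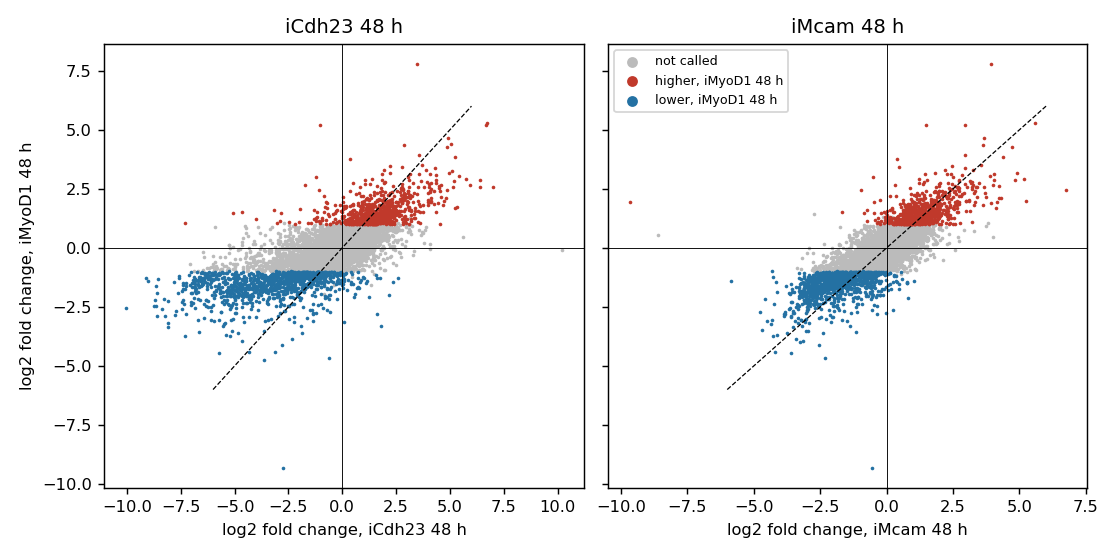
Log2 fold change (dox minus no dox) of each gene in iMyoD1 at 48 h against that in iCdh23 (left) and iMcam (right), coloured by the call in iMyoD1, with a dashed line where both are equal. Genes called lower in iMyoD1 lie mostly left of the dashed line in iCdh23.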

How the data were processed

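RNA from C2C12 iMyoD1 cultures was poly(A)-selected and sequenced as paired ends. The authors ran nf-core/rnaseq with Salmon and deposited estimated counts per transcript, not normalized. The submitters' processing notes name mm10, and the annotation release is not given in the sources used here. Transcripts were summed per gene and rounded to whole counts, and 45143 of 45706 genes matched GENCODE vM21 (GRCm38). Genes passing filterByExpr were tested with edgeR 4.0.16 (R 4.3.3, TMM, quasi-likelihood, Benjamini-Hochberg), with dox against no dox at 48 h as the main comparison and interaction contrasts for the others. DESeq2 1.42.0 was an alternative. The labels call the 3 libraries of a group biological replicates. Their p-values measure the spread between these libraries. On simulated counts for the 48 h comparison (13871 genes, 200 changed 4-fold), edgeR called 198 of the changed genes and 5 others. Whether the counting used strand is not stated, so reads of 42 of the 144 named genes cannot be told apart from those of a gene on the other strand. Length-scaled levels used annotated lengths.

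Members and lists were chosen with earlier results of these data known. Named were 9 genes of the study, the 10 largest rises and falls called with at least 5 CPM and no overlap, up to 3 members of each of 42 lists with the member furthest the other way, and 5 genes per direction for each difference. Pairs of replicates within a group differed by 8.92 to 41.1 chi-square units per gene, so none was a repeat deposit. Gene list medians under some settings were added after seeing the data. Some genes that the rule names are not reported here. All columns of the tables belonged to samples of the series.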

Additional observations from a re-analysis of the deposited data

Results flagged for a closer look

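Differences of the dox effect between times or lines were flagged because a test of the difference itself passed. Against 24 h, 640 genes were called above and 1351 below. Those furthest below were *Sbk2* at -9.28, *Aldh3b3* at -7.46, *Sema3g* at -5.44, *Mybpc1* at -5.36 and *Cav3* at -5.30. *Sbk2*, *Aldh3b3*, *Mybpc1* and *Cav3* were at 0 CPM without dox at 24 h, so these fitted values depend on the prior count and are no bounds. Furthest above were *Gm29216*, a pseudogene, at 4.91, *Rgs2* at 4.64, *Cxcl5* at 3.76, *Gsta4* at 3.65 and *Sned1* at 3.58. *Gsta4*, a glutathione transferase, was at 86.0 CPM with dox and 458 CPM without at 24 h, and at 71.1 and 28.6 CPM at 48 h.

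Against 120 h, 867 genes were called above and 1058 below. *Rpl35a-ps4* at -10.51, *Mss51* at -5.12, *Vdac3-ps1* at -4.22, *Padi3* at -3.92 and *Gm12758* at -3.50 were furthest below, and *Gm15441* at 5.28, *Gdf15* at 5.12, *Rpgrip1* at 4.03, *Slc7a11* at 3.90 and ENSMUSG00000106857 at 3.73 furthest above. *Gm12758*, *Gm15441* and *Rpgrip1* are overlapped on the other strand and had group means of at most 1.10 CPM at 120 h. *Rpl35a-ps4* was at 0 CPM in 1 dox library at 48 h. Its 48 h effect was between -1.31 and 0.03 without single libraries, so most of its difference came from the 120 h libraries. The differences of *Gm15441* and *Rpl35a-ps4* lost significance without single libraries (adjusted p up to 0.0706 and 0.062, edgeR), and those of *Gm15441* and *Rpgrip1* after thinning to equal depth (adjusted p = 0.157 and 0.087). With a replicate block the adjusted p of *Rpgrip1* was 0.0749. *Mss51* was at 5.17 CPM with dox and 14.6 CPM without at 48 h, and at 20.2 and 1.70 CPM at 120 h.

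Against the mean of iCdh23 and iMcam, 1191 genes were called above and 365 below. *Arpp21* at 4.38, *Dmp1* at 4.22, *Kcnk13* at 4.07, *Cilp* at 4.03 and *Iqsec3* at 3.73 were furthest above, and *Atp1b2* at -2.53, *Atp2a3* at -2.42, *Egfl7* at -2.31, *Eml5* at -2.19 and *Fgfr3* at -2.10 furthest below. *Kcnk13*, a potassium channel, was at 7.75 CPM with dox and 7.51 CPM without in iMyoD1 (adjusted p = 0.973 by edgeR), and fell by 5.20 and 2.94 in the other lines.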

How the results depend on the processing

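The counts of genes called at 48 h stayed within 1.5 times the main counts under DESeq2, another normalization, no low-count filter, thinning to equal depth, genes without opposite-strand overlaps and all 4 groups of the table. Without a fold limit, 3866 genes were higher and 3980 lower. Leaving out 1 library gave 806 to 890 genes higher and 1134 to 1260 lower. For the differences, it gave 575 to 675 above and 1283 to 1432 below against 24 h, 784 to 920 and 945 to 1055 against 120 h, and 1080 to 1195 and 310 to 442 against the other lines. The numbers of the replicates did not pair the samples, with residual correlations of -0.099, 0.029 and 0.077, and a replicate block gave 821 genes higher and 1187 lower. In the differences, the block gave 593 and 1329, 714 and 958, and 1232 and 378. With no low-count filter the balance against 120 h turned, with 1035 genes above and 1010 below. CAGCTG over the last 100 bases stood in 9.33%, 9.85% and 6.43% of the genes called higher, called lower and tested.

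Of 42 lists, 33 had a median under 0. The medians of the neuromuscular junction list (0.08), proteases (0.01), IGF genes (0.11) and oxidative phosphorylation (0.06) turned above 0 by library totals, and that of the immunoglobulin family turned to -0.11 without opposite-strand overlaps. The IGF median was also above 0 with no low-count filter (0.04), without overlaps (0.14), without no-dox replicate 3 (0.03) and without dox replicate 1 (0.05), and that of smooth muscle contractile genes was -0.05 without dox replicate 1. Signs turned in 15 values of named genes, none called at 48 h. *Cdh15* was at 0.13 by library totals, 0.01 without opposite-strand overlaps and -0.04 to 0.01 without single libraries. *Rpl35a-ps4* ranged from -1.31 to 0.03 without single libraries, *Rpgrip1* from -0.18 to 0.08 (0.05 by library totals), and *Slc7a11* from -0.56 to 0.61, the last without no-dox replicate 3. *Kcnk13* was at 0.14 by library totals, 0.02 when thinned, 0.01 without overlaps and -0.05 to 0.06 without single libraries. By library totals *H19* (-0.95), *Ifit2* (-0.94), *Dysf* (-0.93) and *Adamts6* (-0.99) were under 2-fold, and *Mcam* (1.05) and *Gm15441* (1.08) passed it. The cause was not tested.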
